A study of Homo sapiens with 6 samples.

Results

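The nuclear-encoded genes of the mitochondrial respiratory chain and ATP synthase were followed in HCT116 cells, a widely used line from a human colorectal carcinoma. Members were taken by name. They were the genes on the sense strand whose symbol starts with NDUFA, NDUFB, NDUFC, NDUFS, NDUFV, UQCR, ATP5 or COX4 to COX8, and the succinate dehydrogenase genes SDHA, SDHB, SDHC and SDHD. This gave 93 of 22984 sense genes after 2 rows with pseudogene names were left out. Of these, 39 encode complex I subunits or their isoforms, 4 complex II, 9 complex III, 17 complex IV and 16 complex V. NDUFA4 and NDUFA4L2 are counted with complex I by their names, although NDUFA4 is now placed with complex IV. A further 6 are assembly or associated factors (NDUFAF1 to NDUFAF4, ATP5S and ATP5SL). COX4NB, a neighbour of COX4I1 that is not a chain subunit, and the 95 bp readthrough entry NDUFC2-KCTD14 were caught by the name alone.

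Nascent RNA was measured by Bru-seq, in which cells take up bromouridine for 0.5 h and the labelled RNA is captured and sequenced, so that exons and introns of RNA made in that window are read. The labels name no engineered allele in any of the 6 libraries. They were 2 DMSO cultures (0.01%, 4 h), 1 culture with siRNA against GSTO1 (siGSTO1, 10 nM, 24 h), 1 each with the GSTO1 inhibitor C1-27 at 1 μM for 4 h and 24 h, and 1 with C1-14, the compound that the study uses as inactive analogue, at 10 μM for 4 h. Only DMSO had more than 1 library, the 24 h cultures had no DMSO control of the same length and were set against the 4 h one, and no non-targeting siRNA was analysed here. Sense counts were 18112861 to 36841146 per library, fewest in DMSO 1. Levels are given as RPKM (reads scaled to gene length and library size). Of 7 epithelial markers, KRT8, KRT18, KRT19 and EPCAM lay at 2.57 to 11.9 RPKM, CDH1 and CDX2 at 0.232 to 0.617 and VIL1 at no more than 0.00255. Of 7 markers of other cell types, PECAM1, COL1A1 and VIM were detected in every library at 0.0373 to 0.374 RPKM, PTPRC, ALB and GFAP reached at most 0.0271, and CD3E was listed at 0 in all 6 libraries. GSTO1 itself read 3.51 and 3.72 RPKM in DMSO and 2.70 with siGSTO1, which is 74.7% of the DMSO mean (edgeR adjusted p = 0.314). An siRNA acts on finished mRNA, so nascent RNA does not check the silencing.

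The respiratory chain sits in the inner mitochondrial membrane. Complexes I and II pass electrons from NADH and succinate to ubiquinone, complex III passes them on to cytochrome c and complex IV to oxygen. Complexes I, III and IV pump protons, and complex V, the ATP synthase, uses the proton gradient to make ATP. A few core subunits are encoded in mitochondrial DNA and the rest in the nucleus. No row of the mitochondrial genome was in the table, so only the nuclear side was read. The promoters of many of the nuclear genes are known to bind NRF1, the ETS factor GABP and YY1.

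Promoter sequences were available for 76 of the 93 genes in the RefSeq promoter table (GRCh38.p14, 250 bases before to 50 bases after each annotated start). The letters of the NRF1 motif (GCATGCGC), of the ETS motif bound by GABP (CCGGAAG) and of a YY1 motif (ATGGCGGC) were searched on both strands. No match of 1 motif overlapped a match of another in the 93 promoters of the members. Among 78 promoters of tested subunits (65 genes), 19.2% held the NRF1 letters against 3.05% of all 35116 promoters, 26.9% held the ETS letters against 10.3%, and 16.7% held the YY1 letters against 3.00%. At least 1 of the motifs was found in 48.7% of the subunit promoters and 14.8% of all promoters. The 4 promoters that follow belong to members past 1.4-fold in RPKM with siGSTO1 against the DMSO mean. They are written 5′ to 3′ on the strand of the gene with motif letters in capitals. NDUFB11 carries the YY1 letters, COX8A the ETS letters and ATP5I the NRF1 and the ETS letters, whereas ATP5E has none of them in this window. Of the other members past that limit, NDUFB10 has none of these letters either, and NDUFA5 has the NRF1 letters in 1 of its promoters.
NDUFB11, chrX:47144653-47144952, minus strand: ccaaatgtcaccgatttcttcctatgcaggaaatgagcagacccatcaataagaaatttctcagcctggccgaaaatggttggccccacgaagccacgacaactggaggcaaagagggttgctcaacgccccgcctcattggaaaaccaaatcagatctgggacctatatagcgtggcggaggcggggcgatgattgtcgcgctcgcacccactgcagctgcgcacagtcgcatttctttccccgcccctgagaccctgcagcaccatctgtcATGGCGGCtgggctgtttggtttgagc
COX8A, chr11:63974370-63974669, plus strand: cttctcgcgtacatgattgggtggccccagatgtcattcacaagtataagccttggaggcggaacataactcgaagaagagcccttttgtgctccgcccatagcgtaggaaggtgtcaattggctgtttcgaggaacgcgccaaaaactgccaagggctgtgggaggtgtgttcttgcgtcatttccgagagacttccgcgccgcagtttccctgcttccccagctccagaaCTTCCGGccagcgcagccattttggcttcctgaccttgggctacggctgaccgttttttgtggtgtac
ATP5I, chr4:674227-674526, minus strand: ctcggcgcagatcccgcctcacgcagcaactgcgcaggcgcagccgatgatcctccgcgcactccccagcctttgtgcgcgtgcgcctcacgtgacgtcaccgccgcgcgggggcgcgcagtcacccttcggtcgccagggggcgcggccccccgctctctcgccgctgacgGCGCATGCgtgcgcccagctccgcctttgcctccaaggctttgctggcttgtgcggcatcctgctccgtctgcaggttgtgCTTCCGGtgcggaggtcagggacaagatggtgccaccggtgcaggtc
ATP5E, chr20:59032286-59032585, minus strand: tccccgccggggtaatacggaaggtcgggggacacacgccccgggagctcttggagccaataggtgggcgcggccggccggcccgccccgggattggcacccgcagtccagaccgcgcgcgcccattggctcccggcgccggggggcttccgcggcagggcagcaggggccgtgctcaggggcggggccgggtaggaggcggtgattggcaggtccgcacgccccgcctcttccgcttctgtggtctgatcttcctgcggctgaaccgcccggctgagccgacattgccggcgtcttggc

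In DMSO, 82 of the 93 genes were above 0.5 RPKM, the level below which the study leaves genes out. The subunits were transcribed at 0.528 to 7.65 RPKM (mean of the DMSO libraries), a 14.5-fold range. By complex, the median level was 1.61 RPKM for complex I (37 genes), 1.44 for complex II (4), 3.40 for complex III (8), 3.76 for complex IV (11) and 3.42 for complex V (16). The median of all 7825 genes above 0.5 RPKM was 1.41, and 57 of 76 subunits lay above it, with 10 above the 90th percentile. RPKM is a level per length of gene, introns included, and each of these medians stands for genes that differ among themselves by at least 3.74-fold.

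**Figure D1:**
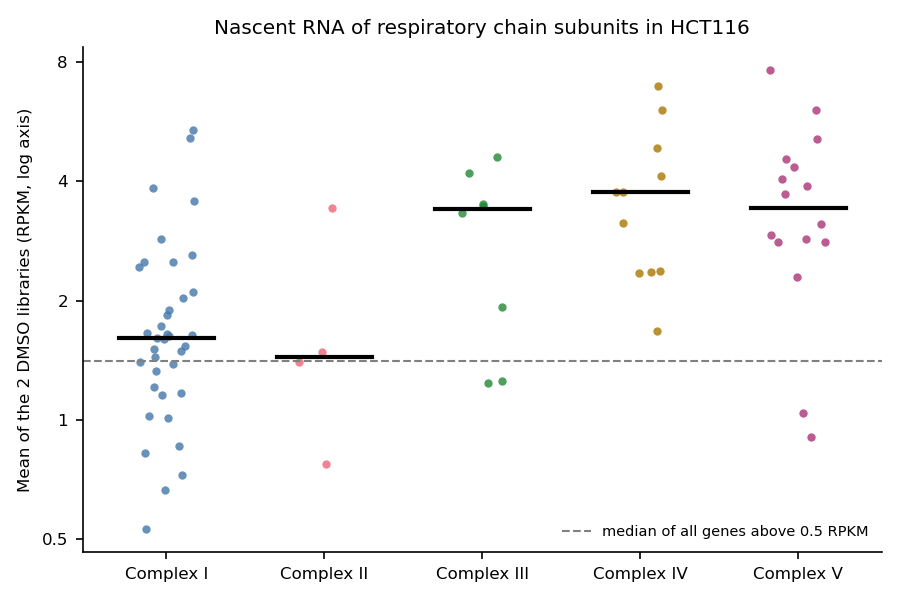
Each point is 1 subunit gene above 0.5 RPKM in DMSO. The y axis gives the mean RPKM of the 2 DMSO libraries on a log axis, black bars are medians of each complex and the dashed line is the median of all genes above 0.5 RPKM (1.41). Medians of complexes III, IV and V lie at 3.40 to 3.76, those of complexes I and II at 1.61 and 1.44.

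Complex I, the NADH dehydrogenase, ran from NDUFB9 (5.54 and 5.24 RPKM in DMSO 1 and 2), an accessory subunit of the membrane arm, down to NDUFA11 (0.607 and 0.448) among the genes above 0.5 RPKM. NDUFV2, a core subunit of the NADH-oxidizing module, read 4.87 and 5.46 RPKM. NDUFS7, a core iron-sulphur subunit, had 0.570 and 0.329 RPKM, with a mean below the limit. In complex II, SDHD, a membrane anchor, stood at 3.55 and 3.31 RPKM, whereas the flavoprotein SDHA stood at 0.835 and 0.710. The iron-sulphur subunit SDHB (1.59 and 1.38) and the second anchor SDHC (1.50 and 1.29) lay between them, and their ranges overlapped, so that the order of SDHB and SDHC is within the spread of the DMSO libraries.

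Complex III was led by the hinge protein UQCRH (5.11 and 4.13 RPKM) and UQCRB (4.46 and 3.94), whose ranges overlapped. UQCRFS1, the Rieske iron-sulphur protein, read 3.23 and 3.80 RPKM. The core proteins differed from each other, with UQCRC2 at 3.33 and 3.61 and UQCRC1 at 1.58 and 0.917. In complex IV, COX4I1, a regulatory subunit, was highest (7.94 and 5.97 RPKM), followed by the small subunit COX7C (5.54 and 6.55), and these also overlapped. In complex V the catalytic beta subunit ATP5B read 8.49 and 6.81 RPKM, the highest mean among the members and overlapping with COX4I1, and the delta subunit of the central stalk ATP5D read 1.11 and 0.699, the lowest of its complex.

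In complex IV, where several subunits have tissue isoforms, the widely expressed isoform of each pair carried most of the nascent RNA. The heart and muscle isoforms COX6A2 and COX7A1, the lung isoform COX4I2 and the testis isoform COX7B2 had a count of 0 in all 6 libraries. A count of 0 allows at most 0.184 RPKM for COX6A2, 0.0659 for COX7A1, 0.0180 for COX4I2 and 0.000735 for COX7B2 in DMSO 1, the shallowest library (3 counts, counting error only). Their partners read 3.53 and 2.73 (COX6A1), 3.61 and 3.92 (COX7A2), 7.94 and 5.97 (COX4I1) and 4.24 and 4.00 RPKM (COX7B) in DMSO 1 and 2. COX6B2, a testis isoform, was read at 0.217 and 0.240 RPKM, against 1.92 and 1.42 for COX6B1. COX8C, another testis isoform, was listed at 0 in both DMSO libraries, against 2.33 and 2.36 for COX8A. COX7A2L, a related factor of supercomplex assembly, stood at 2.48 and 2.27 RPKM.

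The 3 genes of the ATP synthase c-ring, ATP5G1, ATP5G2 and ATP5G3, encode the same mature protein and were all transcribed. ATP5G3 had 6.13 and 6.01 RPKM in DMSO 1 and 2, ATP5G1 had 4.81 and 3.32, and ATP5G2 had 3.15 and 2.58. The ranges of these genes did not overlap in DMSO. NDUFA4 had 2.63 and 3.09 RPKM, against 0.00738 and 0.00423 for NDUFA4L2, which is known to be induced in hypoxia. NDUFA4L2 had 1 count in each DMSO library, 8 with siGSTO1, 1 and 0 with C1-27 at 4 h and 24 h, and 3 with C1-14, and was too low to be tested. The intronless copies UQCRHL (0.159 and 0.0456 RPKM) and ATP5L2 (1.07 and 1.00) resemble UQCRH and ATP5L (4.21 and 4.48), and ATP5L2 also lies inside CYB5R3 on the same strand, so the origin of their reads is uncertain.

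The order of levels among the 82 genes was much the same in every library. Spearman's rho between libraries was 0.934 to 0.990, given as a description across genes that share their lengths. The highest of the 6 libraries exceeded the lowest by a median of 1.34-fold, against 1.37-fold over all genes, and 80 of the 82 genes stayed within 2-fold. The median subunit level of complex I was 1.43 to 1.78 RPKM across the 6 libraries, that of complex II 1.34 to 1.56, complex III 3.15 to 3.76, complex IV 3.61 to 4.34 and complex V 2.97 to 3.71.

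The DMSO libraries differed from each other at several members. None of 82 was 1.4-fold or more higher in DMSO 2 than in DMSO 1 (2.84% of all genes), and 12 were 1.4-fold or more lower, 14.6% against 16.3% of all genes. The 12 were NDUFA3, NDUFB2, NDUFB7, NDUFB10, NDUFS6, NDUFS8, NDUFV1, UQCR11, UQCRC1, ATP5D, ATP5G1 and ATP5I. NDUFB10, an accessory subunit of the membrane arm, read 2.21 RPKM in DMSO 1 and 0.987 in DMSO 2, and ATP5I, the e subunit of the ATP synthase membrane part, 3.74 and 1.89. The longest annotated transcripts of the 12 had a median GC content of 57.1%, against 45.7% for the other 70. These transcripts are spliced, so their GC content leaves out the introns that Bru-seq also reads. Across the 82 genes Spearman's rho of the log2 ratio with GC content was -0.58, and -0.65 over 7615 genes, both as descriptions. These members and their controls were read from the same libraries, and the part that GC content plays in the difference was not tested.

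**Figure D2:**
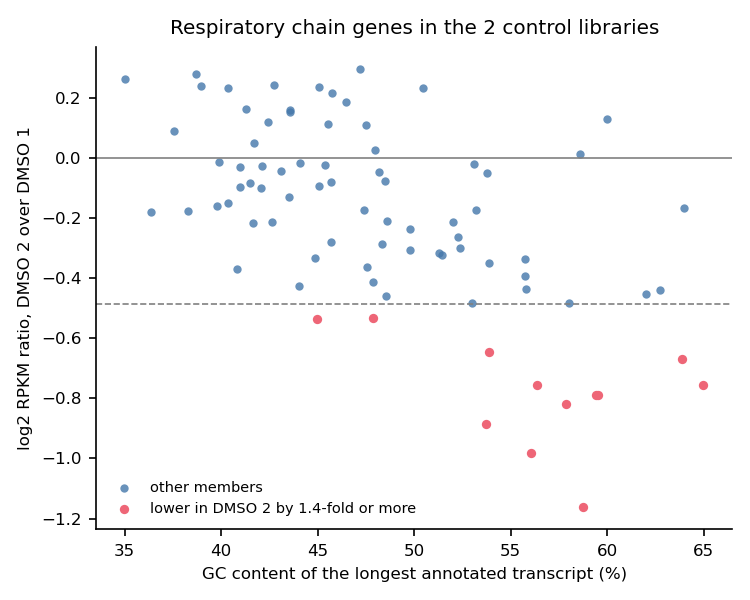
Each point is 1 of the 82 genes above 0.5 RPKM in DMSO. The x axis gives the GC content of the longest annotated transcript in percent, and the y axis the log2 ratio of the RPKM in DMSO 2 to that in DMSO 1, with the dashed line at 1.4-fold lower. The 12 genes below that line have a median GC content of 57.1%.

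The comparisons asked which genes respond to silencing of GSTO1 or to its inhibitor. For the tests, 85 of the 93 genes had enough counts (at least 10 in at least 2 libraries). No member was called by edgeR's quasi-likelihood test at an adjusted p under 0.05 in any comparison with DMSO. Of all 14431 genes tested, 4.91% were called with siGSTO1, 0.0208% with C1-27 at 4 h, 0.36% with C1-27 at 24 h and 0.139% with C1-14. No member was called between C1-27 at 24 h and 4 h either (0.125% of all genes), nor between siGSTO1 and C1-27 at 24 h (1.43%). DESeq2 called 0 members in each of the 6 comparisons. It called few genes in all, 1.57% with siGSTO1, 0% with C1-27 at 4 h, 0.125% with C1-27 at 24 h, 0.0139% with C1-14, 0.0346% between the C1-27 times and 0.162% between siGSTO1 and C1-27 at 24 h. At an unadjusted p under 0.05 by edgeR, 1 of 85 members passed with siGSTO1 (15.2% of all genes), 0 with C1-27 at 4 h (0.797%), 0 at 24 h (4.28%) and 1 with C1-14 (1.61%). None passed between the C1-27 times (2.9%) and 1 between siGSTO1 and C1-27 at 24 h (8.06%). The fit has 1 residual degree of freedom, so each lone treated library was taken to vary like the DMSO pair, with a spread pooled over genes. Standard errors of the log2 fold changes were 0.24 to 0.69, with a median of 0.31 for siGSTO1. The 95% interval stayed within 2-fold in both directions for 62 of 85 members with siGSTO1, 68 with C1-27 at 4 h, 68 at 24 h and 62 with C1-14.

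With siGSTO1, the medians of 4 of the complexes lay close to that of all 14431 genes tested. The median edgeR log2 fold change was -0.0042 over the 85 members and 0.021 over all genes. By complex it was 0.030 for complex I (38 genes), 0.0071 for complex II (4), -0.018 for complex III (8) and 0.042 for complex IV (12), and -0.20 for complex V (16). Genes above 0.5 RPKM had lower medians, -0.0087 up to 5000 bp and -0.12 between 5000 and 10000 bp. They had -0.12 between 10000 and 20000 bp and -0.153 over 20000 bp (4667 genes). Members in these size classes had 0.077, -0.015, 0.024 and -0.146. The medians of complexes I to IV lay above those of the classes over 5000 bp, and that of complex V below. Against 1 DMSO library at a time, the complex V median was -0.049 without DMSO 1 and -0.18 without DMSO 2, and that of all members 0.058 and -0.050, with 0.084 and -0.021 over all genes. In complex V, 9 of 16 genes lay below both DMSO libraries and 4 above, whereas in complex IV 1 of 12 lay below and 7 above (TMM-scaled counts). Over all members 27 of 85 lay above both DMSO libraries and 29 below, 31.8% and 34.1%, against 38.8% and 34.5% of all genes. These shares do not set the members apart from other genes.

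At the 1.4-fold limit on RPKM, 5 of 82 members were higher with siGSTO1 than the DMSO mean (6.10%, against 10.5% of all genes) and 1 was lower (1.22%, against 6.48%). Scaling RPKM by TMM left 1 higher and 1 lower. The 5 were NDUFB11, COX8A, NDUFA5, ATP5I and NDUFB10. Against each DMSO library taken singly, 2 of them stayed past the limit, NDUFB11 and COX8A.

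NDUFB11, an accessory subunit of the complex I membrane arm (X chromosome, hg19 47001615 to 47004609, minus strand), read 0.785 and 0.859 RPKM in DMSO, 1.46 with siGSTO1, 0.855 and 0.886 with C1-27 at 4 h and 24 h, and 1.08 with C1-14. The siGSTO1 library was the highest of the 6, and both C1-27 libraries were near DMSO 2. The counts behind it were 55 and 105 in DMSO and 115 with siGSTO1, and the log2 fold change was 0.70 ± 0.51 (SE; edgeR adjusted p = 0.578). COX8A, a small subunit of complex IV, read 2.33 and 2.36 RPKM in DMSO, 3.42 with siGSTO1, 2.54 and 2.14 with C1-27 at 4 h and 24 h, and 2.63 with C1-14. It was highest with siGSTO1 too, with a log2 fold change of 0.43 ± 0.46 (edgeR adjusted p = 0.752). The difference was smaller than its standard error.

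ATP5E, the epsilon subunit of the ATP synthase central stalk (chromosome 20, hg19 57603733 to 57607422, minus strand), was the member with the largest negative value. It read 4.62 and 5.61 RPKM in DMSO, 3.41 with siGSTO1, 5.47 and 5.95 with C1-27 at 4 h and 24 h, and 6.33 with C1-14. Only the siGSTO1 library lay below both DMSO libraries. Counts were 399 and 844 in DMSO and 330 with siGSTO1, and the log2 fold change was -0.71 ± 0.34 (95% interval -1.37 to -0.050, unadjusted p = 0.0350, adjusted p = 0.271 by edgeR), which did not pass the test over all genes.

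The other genes at the ends of the siGSTO1 range were closer to a DMSO library. ATP5I read 3.74 and 1.89 RPKM in DMSO, 4.07 with siGSTO1, 2.76 and 2.52 with C1-27 at 4 h and 24 h, and 2.90 with C1-14. Its siGSTO1 value was 2.15-fold that of DMSO 2 but 1.09-fold that of DMSO 1. NDUFB10 read 2.21 and 0.987 RPKM in DMSO, 2.26 with siGSTO1, 1.28 and 1.53 with C1-27 at 4 h and 24 h, and 2.36 with C1-14. It was 1.02-fold over DMSO 1, and 27.2% to 51.6% of the reads over this gene were antisense, against a median of 0.301% over the members in DMSO 1. NDUFA5, a complex I subunit of the matrix arm, read 1.73 and 2.07 RPKM in DMSO and 2.81 with siGSTO1 (log2 fold change 0.45 ± 0.27, edgeR adjusted p = 0.444). NDUFAF4, which helps to assemble complex I, read 3.65 and 3.23 RPKM in DMSO and 2.70 with siGSTO1 (-0.46 ± 0.30, edgeR adjusted p = 0.500). COX4NB, the neighbour caught by name, read 2.70, 2.25 and 1.95 RPKM (-0.45 ± 0.27, edgeR adjusted p = 0.438).

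**Figure D3:**
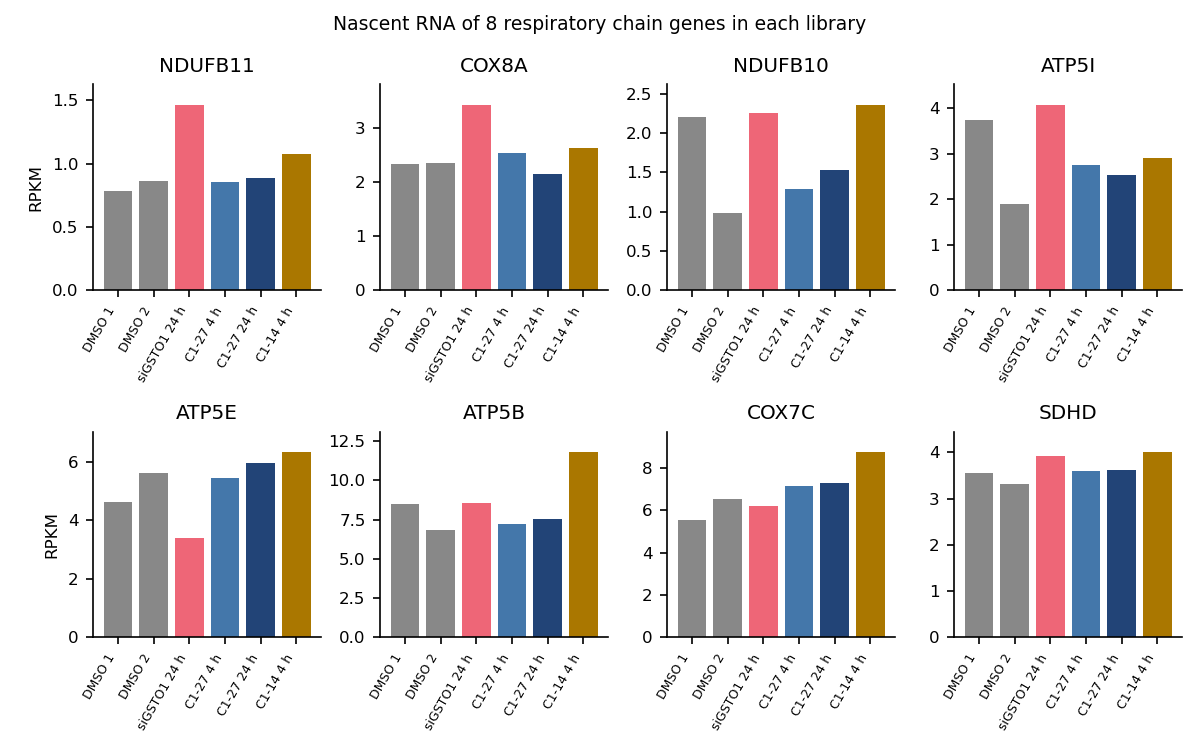
Bars give the RPKM of 8 genes in each of the 6 libraries, 1 panel per gene and each with its own y axis from 0. Each bar is 1 library, so there are no error bars. NDUFB11 (1.46) and COX8A (3.42) are highest and ATP5E (3.41) is lowest with siGSTO1, ATP5B (11.8) and COX7C (8.73) are highest with C1-14, and NDUFB10 and ATP5I differ between the DMSO libraries. SDHD, the highest of complex II, stays at 3.31 to 4.00.

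With C1-27 the respiratory chain genes stayed near DMSO at both times. At 4 h the median log2 fold change was 0.016 over the members and -0.020 over all genes, and by complex 0.0067, 0.040, 0.066, 0.064 and -0.033 for complexes I to V. At 24 h it was -0.0017 over the members and 0.0020 over all genes, and 0.014, 0.039, -0.085, 0.099 and -0.059 for complexes I to V. The sign of both member medians turned with the control. Without DMSO 1 they were 0.082 at 4 h and 0.065 at 24 h (0.0056 and 0.044 over all genes), and without DMSO 2 -0.061 and -0.066 (-0.054 and -0.013 over all genes). None of 81 members was 1.4-fold higher at 4 h (0.457% of all genes) and 1, ATP5D, was lower (1.23%, against 2.22%). At 24 h 1 of 82, NDUFA8, was higher (1.22%, against 3.23%) and none was lower (3.49% of all genes). Neither gene passed the limit against each DMSO library singly.

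Above both DMSO libraries lay 28 of 85 members at 4 h (32.9%, against 21.9% of all genes) and 26 at 24 h (30.6%, against 31.6%). Below both lay 13 at 4 h (15.3%, against 25.9%) and 23 at 24 h (27.1%, against 27.9%). The C1-27 4 h library was close to DMSO 2, with a median absolute log2 difference over the members of 0.092, against 0.20 from DMSO 1. Over all genes these distances were 0.11 and 0.26.

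Among the members with the largest values at 4 h, NDUFC1, a small accessory subunit of complex I, read 0.772 and 0.949 RPKM in DMSO and 1.10 with C1-27 (log2 fold change 0.36 ± 0.35). COX7A2 read 3.61 and 3.92 in DMSO and 4.44 with C1-27 (0.26 ± 0.29), and COX7C read 5.54, 6.55 and 7.16 (0.26 ± 0.31). On the lower side, COX6B2 had 26 and 50 counts in DMSO and 24 with C1-27 (-0.90 ± 0.68). ATP5D read 1.11 and 0.699 RPKM in DMSO and 0.631 with C1-27 (-0.44 ± 0.54), and ATP5L2 read 1.07, 1.00 and 0.762 (-0.39 ± 0.66). Each of these had an edgeR adjusted p of 1.

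At 24 h NDUFA8, a complex I subunit facing the intermembrane space, read 1.12 and 0.896 RPKM in DMSO and 1.43 with C1-27 (0.46 ± 0.31). It had read 1.01 with C1-27 at 4 h. NDUFA1, a membrane arm subunit encoded on the X chromosome, read 1.87 and 1.81 in DMSO and 2.44 with C1-27 at 24 h (0.36 ± 0.37), and UQCR10, a small subunit of complex III, read 1.85, 2.00 and 2.52 (0.32 ± 0.41). Lower values were those of NDUFS7 (0.570 and 0.329 RPKM in DMSO, 0.319 with C1-27, -0.49 ± 0.46), NDUFA7 (1.30 and 1.03 in DMSO, 0.904 with C1-27, -0.41 ± 0.37) and NDUFB7 (0.834 and 0.494 in DMSO, 0.529 with C1-27, -0.33 ± 0.48). The 95% intervals of these 6 genes all included 0, and each edgeR adjusted p was 1.00.

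With C1-14, the median of the members lay above that of all genes. The median log2 fold change was 0.12 over the 85 members and 0.0012 over all genes, and 60 members (70.6%) had a positive value, against 50.2% of all genes. By complex the median was 0.11 for complex I, 0.010 for complex II, 0.16 for complex III, 0.17 for complex IV and 0.19 for complex V. The member median was 0.17 without DMSO 1 and 0.097 without DMSO 2 (0.0078 and -0.013 over all genes), and that of complex II turned from 0.093 to -0.069. With NDUFA4 in complex IV, the C1-14 medians of complexes I and IV were 0.10 and 0.18. Above both DMSO libraries lay 44 of 85 members (51.8%, against 25.8% of all genes), and 5 lay below (5.88%, against 25.2%). Those above were 18 of 38 in complex I, 1 of 4 in complex II, 5 of 8 in complex III, 9 of 12 in complex IV, 10 of 16 in complex V and the assembly factor NDUFAF1. The difference rests on 1 library and has no test over samples.

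Gene size and transcript GC content both moved with the C1-14 values. Over the 82 members above 0.5 RPKM, Spearman's rho of the C1-14 log2 fold change was -0.24 with size and -0.26 with GC content. Over all genes above 0.5 RPKM it was -0.21 and -0.26, given as descriptions. The members are compact genes, with a median size of 8581 bp against 29020 bp over the genes tested. Among genes above 0.5 RPKM, the median C1-14 log2 fold change of genes up to 5000 bp was 0.25 for 17 members and 0.17 for all 880 genes. Between 5000 and 10000 bp it was 0.16 for 25 members and 0.066 for all 931, between 10000 and 20000 bp 0.11 for 27 members and 0.036 for all 1338, and over 20000 bp 0.045 for 13 members and 0.0091 for all 4667. Members lay above all genes in each size class, by less in the largest. With siGSTO1 and with C1-27 at 4 h and 24 h they also did so in each class, so this order is not particular to C1-14. With siGSTO1 the medians were -0.015 against -0.12 between 5000 and 10000 bp, and 0.024 against -0.12 between 10000 and 20000 bp. The parts of gene size and GC content in the C1-14 difference were not tested.

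At the 1.4-fold limit 3 of 82 members were higher with C1-14 (3.66%, against 3.71% of all genes) and 1 was lower (1.22%, against 1.01%). ATP5B (chromosome 12, hg19 57031959 to 57039852, minus strand) was the highest of them in level. It read 8.49 and 6.81 RPKM in DMSO, 8.54 with siGSTO1, 7.24 and 7.51 with C1-27 at 4 h and 24 h, and 11.8 with C1-14. The C1-14 library stood above the other 5, which lay within 6.81 to 8.54. The counts were 1537 and 2152 in DMSO and 3164 with C1-14, and the log2 fold change was 0.65 ± 0.24 (95% interval 0.17 to 1.13, unadjusted p = 0.00806, adjusted p = 1.00 by edgeR).

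COX7C read 5.54 and 6.55 RPKM in DMSO, 6.21 with siGSTO1, 7.16 and 7.30 with C1-27 at 4 h and 24 h, and 8.73 with C1-14. It was highest with C1-14, with a log2 fold change of 0.54 ± 0.31 (edgeR adjusted p = 1.00). The third, NDUFB10, had 2.36 RPKM with C1-14 but 2.21 in DMSO 1 (0.67 ± 0.46, edgeR adjusted p = 1.00). ATP5L2 was the lower one, with 20 and 33 counts in DMSO and 20 with C1-14 (-0.50 ± 0.69). NDUFS7 (-0.31 ± 0.47) and UQCR11, a small subunit of complex III (-0.29 ± 0.40), followed. Against each DMSO library singly, no member passed 1.4-fold in either direction. Doses of C1-14 (10 μM) and C1-27 (1 μM) differ, so their values at 4 h are given side by side and were not compared.

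**Figure D4:**
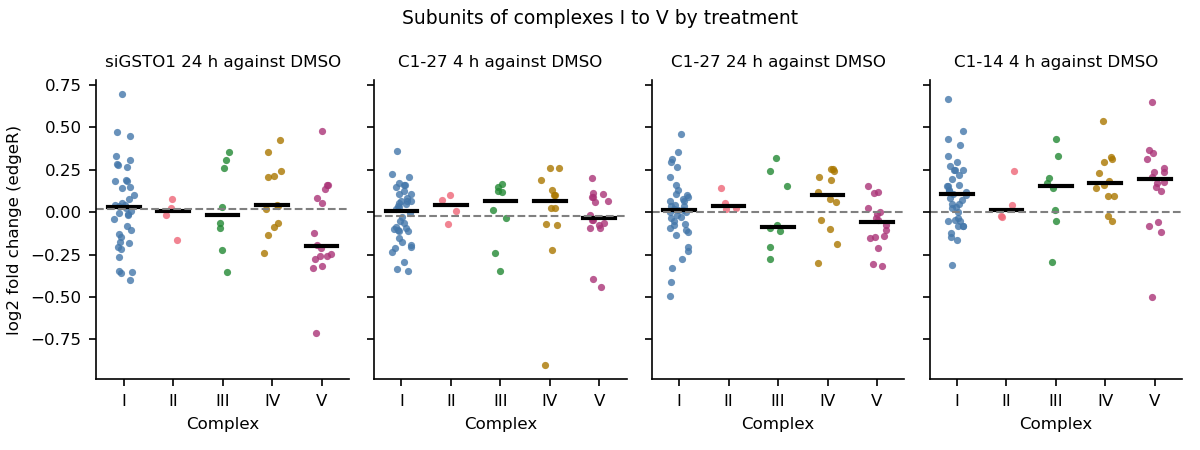
Each point is 1 tested subunit gene, with its edgeR log2 fold change against the 2 DMSO libraries on the y axis and its complex on the x axis, in 1 panel for each treated library. Black bars are medians by complex and dashed lines the medians of all 14431 genes. The bar of complex V lies at -0.20 with siGSTO1, and with C1-14 the bars of complexes I, III, IV and V lie at 0.11 to 0.19.

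Genes that work with the chain were read from lists outside the name rule. Of 4 further genes tied to complexes III and V (CYC1, ATPIF1, USMG5 and C14orf2) none was called in any comparison. CYC1, the cytochrome c1 of complex III, read 1.99 and 1.03 RPKM in DMSO, 2.31 with siGSTO1, 1.24 and 1.39 with C1-27 at 4 h and 24 h, and 2.53 with C1-14. The median C1-14 log2 fold change of these 4 was 0.41. None of 36 assembly factors of complexes II to V, 7 complex I assembly factors or 14 genes of cytochrome c and ubiquinone synthesis was called, with siGSTO1 medians of -0.19, -0.00075 and 0.00068. Their C1-14 medians were 0.0025, -0.073 and 0.053.

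In the tricarboxylic acid cycle, which feeds electrons to the chain, 1 of 17 genes was called higher and 1 lower with siGSTO1. Of all genes, 4.91% were called. OGDH, the E1 subunit of 2-oxoglutarate dehydrogenase, rose from 0.574 and 0.444 RPKM in DMSO to 0.953 (log2 fold change 0.80 ± 0.25, edgeR adjusted p = 0.0301). FH, fumarate hydratase, fell from 2.28 and 2.56 RPKM to 1.39 (-0.91 ± 0.27, edgeR adjusted p = 0.0225). The list's median was -0.19, and none of the 17 was called in the other comparisons. SDHA to SDHD, which belong to the cycle as well as to the chain, had siGSTO1 log2 fold changes of -0.16, -0.014, 0.028 and 0.080.

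Of 17 tested regulators of these genes, 1 was called lower with siGSTO1 and none was called higher, a share near the 4.91% of all genes called. The median siGSTO1 log2 fold change of the 17 was -0.23. GABPB1, a subunit of the ETS factor GABP, fell from 1.19 and 1.38 RPKM in DMSO to 0.756 (-0.88 ± 0.26, edgeR adjusted p = 0.0190). It read 1.47 and 0.982 with C1-27 at 4 h and 24 h and 1.33 with C1-14. Its partner GABPA had a log2 fold change of -0.21 ± 0.26 (edgeR adjusted p = 0.793), and the factor NRF1 read 2.67, 2.79 and 1.84 (-0.69 ± 0.28, edgeR adjusted p = 0.166). Subunits with the ETS letters in a promoter had a median siGSTO1 log2 fold change of 0.055 (20 genes), against -0.0042 for the 45 without, and those with the NRF1 letters 0.061 (14 genes), against -0.0042 for 51. These are descriptions of letters in a window, not of binding.

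Among 11 tested hypoxia response genes, 2 were called higher with siGSTO1 and none was called lower, where 4.91% of all genes were called. NDRG1 rose from 0.250 and 0.194 RPKM to 0.645 (1.44 ± 0.31, edgeR adjusted p = 0.000267), and BNIP3L, a receptor for mitophagy, from 0.150 and 0.117 to 0.394 (1.47 ± 0.43, edgeR adjusted p = 0.0173). The median of the list was 0.11, with values in both directions. ADM read 2.01 and 2.00 RPKM in DMSO and 0.942 with siGSTO1 (-1.21 ± 0.56). ANKRD37, with 7 counts in the siGSTO1 library, had -1.32 ± 0.87, and neither was called. The epithelial keratin KRT8, 1 of 6 tested epithelial markers, fell from 9.60 and 5.81 RPKM to 3.90 with C1-27 at 24 h (-1.02, edgeR adjusted p = 0.0431). Of 3 tested markers of other cell types none was called.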

How the data were processed

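Bru-seq libraries of HCT116 were read from 1 deposited file each. Per the submitters' processing notes, CASAVA 1.8.2, Bowtie 0.12.8, TopHat 1.4.1 and bedtools 2.16.2 were used with hg19. The authors deposited expected counts, unnormalized reads over the whole gene on each strand, a signal (that count per bp, not used in tests) and RPKM. Members and lists were chosen with earlier results of these data known. Sense counts were rounded and fitted in 5 groups with edgeR 4.0.16 (R 4.3.3, TMM, quasi-likelihood, Benjamini-Hochberg over 14431 genes over 300 bp with at least 10 counts in 2 or more libraries), and the method was tested on simulated data. DESeq2 1.42.0 was an alternative. The 1.4-fold counts used genes over 300 bp with a mean RPKM above 0.5 and no pseudocount. Named genes were any called gene, the 3 highest and 3 lowest members per DMSO comparison, the highest and lowest subunit per complex, isoform groups, called genes of the lists, and GSTO1. Members past 1.4-fold, NDUFV2, NDUFA11, UQCRB, UQCRFS1, UQCRC1, UQCRC2, the cell type markers, CYC1, GABPA and the gene NRF1 were named after their values were seen. Rows of ambiguous strand (1.84% to 2.00%) were left out. Transcript GC content came from GENCODE 29, found for all 82 members. Limits at 0 cover counting error only. Standard errors, intervals and p-values rest on the spread of the DMSO pair, pooled over genes, which may be technical.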

Additional observations from a re-analysis of the deposited data

How the results depend on the processing

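In the alternative fits (DESeq2, RLE size factors, total counts, no low-count filter, robust or legacy quasi-likelihood) 0 members were called. Each fit was read in the 6 comparisons, which gave 36 results. Of 92 alternatives, 70 stayed within the tolerance (0.081 on the log2 scale for a median, 3/2 for a count) and 22 moved beyond it. Total-count scaling moved the siGSTO1 median of all genes from 0.021 to 0.18 and of members from -0.0042 to 0.15, and the authors' RPKM totals gave 0.101 for members, so the sign of that median depends on the scaling. It also depends on the DMSO library, from -0.050 to 0.058, as do those of C1-27 at 4 h (-0.061 to 0.082) and 24 h (-0.066 to 0.065). The values with NDUFA4 in complex IV and by complex against 1 DMSO library were added after seeing the data, as was the legacy fit. The C1-14 median of members was 0.11 to 0.12 under the size-factor and total-count scalings. Of the 1.4-fold counts, the siGSTO1 count of higher members was 4 to 17 with 1 DMSO library (17 without DMSO 1) and 1 with TMM scaling. Without 1 DMSO library, C1-27 at 4 h gave 1 higher and 0 to 12 lower (12 without DMSO 2), C1-27 at 24 h gave 2 to 5 higher and 0 to 9 lower (9 without DMSO 2), and C1-14 gave 2 to 7 higher (7 without DMSO 1) and 0 to 3 lower. A pseudocount of 0.1 RPKM gave 0 lower for C1-27 at 4 h, 0 higher at 24 h and 0 lower for C1-14. With no RPKM filter, C1-27 at 4 h had 1 higher and 2 lower, C1-27 at 24 h 2 higher and 1 lower, and C1-14 2 lower. TMM scaling gave 0 higher for C1-27 at 24 h. No paired analysis was possible because only DMSO has replicate numbers. Counts of 55 to 844 behind genes such as NDUFB11 and ATP5E limit what could be detected.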
